A study of Mus musculus with 19 samples.

Results

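Interferon-stimulated genes were followed in OT-I cells, CD8 T cells whose transgenic receptor recognises an ovalbumin peptide, after transfer into B6 mice. The members were 34 named genes, and every probe set whose symbol in the probe table was one of them was taken. Of the 34, 29 had at least 1 of 39 probe sets, out of 8949 gene symbols on the array, and Stat2, Irf2, Oasl2, Bst2 and Xaf1 were not analysed here. Of the probe sets, 37 carry 1 symbol and 2 carry several, which are described apart. This left 28 genes with a probe set of their own. Of these, 27 lay above the filter on dim probe sets and were tested. Mx2, a GTPase gene, lay under it with signals of 20.5, 17.2, 21.2 and 18.9 in the unirradiated hosts and 22.3, 18.1 and 27.9 at day 115.

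The reference was 4 arrays of OT-I cells from unirradiated hosts, sorted at day 6. OT-I cells from irradiated hosts made up the other groups, with 8 arrays titled day 5, 4 of day 40 and 3 of day 115. The descriptions of the day-5 arrays give day 6 as the day of sorting, and those of arrays 1 and 2 leave the cell type out. All cells came from lymph node or spleen, and the labels used here give neither the radiation dose nor the hosts' age or sex, nor whether animals were pooled or separate. P-values therefore measure the spread between these samples, which may be technical. All unirradiated hosts analysed here were of day 6, so at day 40 and day 115 the irradiated host and the time since transfer cannot be told apart.

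Type I interferons, the alpha and beta forms, signal through the receptor chains IFNAR1 and IFNAR2 and lead to binding of a complex that holds IRF9 at the interferon-stimulated response element (ISRE) in promoters. Interferon gamma signals through IFNGR1 and IFNGR2 and acts through the gamma-activated site (GAS). The induced proteins restrict viruses, conjugate the small modifier ISG15 to other proteins and load peptides onto MHC class I, and in CD8 T cells both kinds of interferon are known to act during expansion and memory formation. Many genes respond to both kinds. Here 14 tested members counted as type I targets and 11 as gamma-type targets by their better-known inducer, and Irf9 and Ifitm10 stood outside both classes.

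Many of the members' promoters hold the letters of these elements, which the choice of genes did not use. RefSeq (build GRCm38.p6) gave 250 bases before to 50 after the annotated start for 27 of the 34 members. The ISRE core was searched as GAAA, 2 bases of any kind and GAAA again, and the GAS core as TTCNNNGAA on both strands, and the GAS core reads the same on either. An ISRE core occurred in 14 of the 27 members (51.9%) and in 3.99% of all 27025 genes of the table. A GAS core occurred in 9 of the 27 (33.3%) against 9.55% of all genes, and both cores in 4 members (14.8%) against 0.54%. Among the type I targets with a promoter 8 of 14 held an ISRE core, and among such gamma-type targets 4 of 9. These 14 are not the 14 tested type I targets. They include Bst2, Ifi203, Oasl2 and Xaf1, which were not among the tested genes, and Bst2 and Ifi203 are among the 8. No promoter was available for Mx1, Mx2, Iigp1, Usp18, Ifi204, Tap2 and Ifi27. Stretches of 120 bases are printed for some of the members, all but Ifi47 with a core, 5′ to 3′ on the gene's own strand, with each core in capitals. Isg15, Igtp, Irgm1, Gbp3, Irf1 and Ifi47 are shown from base -120 to -1 before the start, Ifit2 from -246 to -127 and Ifit3 from -161 to -42.
Isg15: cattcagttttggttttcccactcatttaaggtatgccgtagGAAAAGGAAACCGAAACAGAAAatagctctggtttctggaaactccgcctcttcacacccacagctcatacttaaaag
Ifit2: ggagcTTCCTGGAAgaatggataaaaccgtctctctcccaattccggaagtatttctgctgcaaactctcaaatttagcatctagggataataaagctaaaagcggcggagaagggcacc
Ifit3: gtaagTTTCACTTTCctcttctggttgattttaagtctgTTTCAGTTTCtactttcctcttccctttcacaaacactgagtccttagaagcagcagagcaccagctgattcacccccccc
Igtp: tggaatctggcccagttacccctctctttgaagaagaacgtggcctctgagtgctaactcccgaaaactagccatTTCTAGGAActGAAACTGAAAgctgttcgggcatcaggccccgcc
Irgm1: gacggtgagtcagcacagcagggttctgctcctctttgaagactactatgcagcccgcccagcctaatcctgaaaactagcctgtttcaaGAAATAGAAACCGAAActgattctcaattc
Gbp3: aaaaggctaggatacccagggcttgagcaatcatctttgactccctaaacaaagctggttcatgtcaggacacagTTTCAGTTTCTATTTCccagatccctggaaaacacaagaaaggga
Irf1: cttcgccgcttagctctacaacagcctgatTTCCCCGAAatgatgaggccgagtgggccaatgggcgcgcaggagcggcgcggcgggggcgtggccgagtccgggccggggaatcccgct
Ifi47: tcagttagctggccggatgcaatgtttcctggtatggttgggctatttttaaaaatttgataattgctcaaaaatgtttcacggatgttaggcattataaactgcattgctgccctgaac
The Isg15 stretch, at chr4:156200819-156200938 (minus strand), holds 3 ISRE cores that overlap each other. Irgm1, at chr11:48871421-48871540 (minus strand), and Gbp3, at chr3:142559924-142560043 (plus strand), hold 2 overlapping ISRE cores each, and in Gbp3 they read on the opposite strand as TTTC blocks. Ifit3, at chr19:34583368-34583487 (plus strand), also holds 2, which do not overlap, whereas its relative Ifit2, at chr19:34550448-34550567 (plus strand), holds a GAS core and no ISRE core. Igtp, at chr11:58199436-58199555 (plus strand), carries a GAS core next to an ISRE core. Irf1, at chr11:53769894-53770013 (plus strand), carries a GAS core alone, and Ifi47, at chr11:49076467-49076586 (plus strand), holds neither core in its window. A match is a description of letters, and no binding was measured. Irf7, Irf9, Tap1, Tapbp and Ifitm10, which passed in a comparison below, held neither core in their windows either and are not printed. In Bst2, which had no probe set, the GAS core overlapped an ISRE core.

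**Figure D1:**
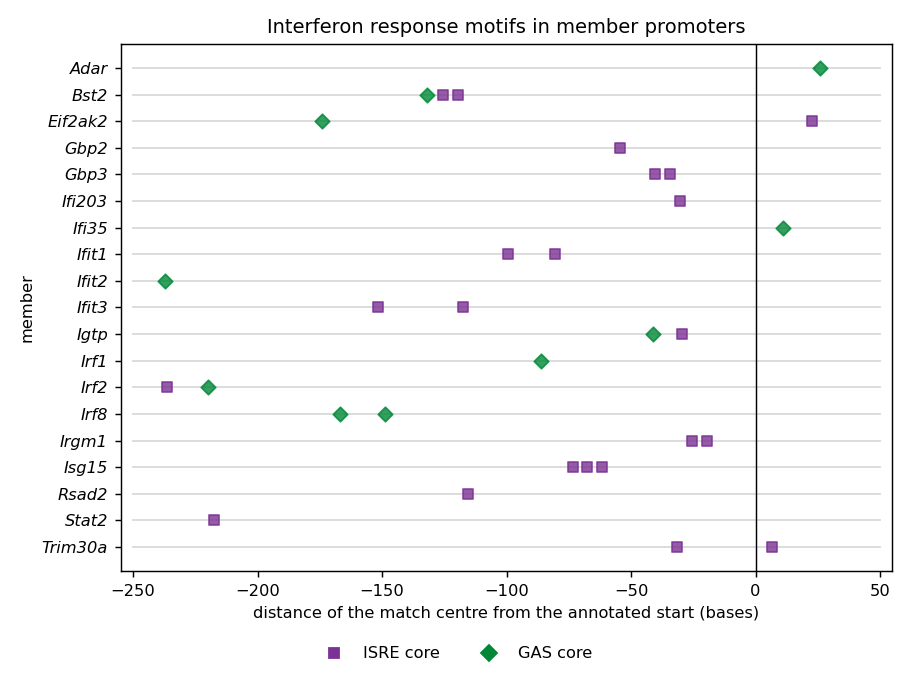
Position of each ISRE core (squares) and GAS core (diamonds) in the promoters of the members that hold one, as the distance in bases of the match centre from the annotated start at 0, with 1 line per member. ISRE cores occur in 14 and GAS cores in 9 of 27 members, most of them before the start.

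The arrays gave 1 signal intensity per probe set, with array medians from 49.5 to 53.7 signal units. Of 11 CD8 T cell markers, 10 had a probe set, and their summed signal ran from 9881 to 11851 in unirradiated hosts and from 10217 to 17002 in irradiated ones. The arrays formed 2 clusters by correlation, called here array cluster 1 and array cluster 2, which cut across the groups. In cluster 1 lay arrays 1 to 3 of day 5, arrays 1 and 2 of day 40 and all 3 of day 115. In cluster 2 lay the other 5 of day 5, arrays 3 and 4 of day 40 and all 4 unirradiated arrays. The CD8 marker sums of irradiated hosts differed by cluster. In cluster 1 they were 15079 to 17002 at day 5, 15600.5 to 16996 at day 40 and 13047 to 14528 at day 115. In cluster 2 they were 10546 to 13703 at day 5 and 10217 to 11002 at day 40, the latter inside the unirradiated range. What separates the clusters was not given in the sources used here. Members are therefore described first on the groups alone, then from a model that also holds the cluster, called the cluster term. The term takes the shift between the clusters as the same in every group. The clusters were drawn from these same signals, and p-values with the term take no account of that. No cluster held both day-115 and unirradiated arrays, and with the term that difference rests on the day-5 and day-40 arrays that lie in both clusters.

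Against unirradiated hosts, the tested interferon-stimulated genes went both ways at each time, with 15 of 27 higher at day 5, 16 at day 40 and 13 at day 115. Within cluster 2 alone, which holds 2 of the day-40 arrays, 19 of 27 were higher at day 40, among them 10 of 11 gamma-type targets. The median difference over the 27 was 0.19 there, beside -0.002 over all tested genes. There 1 member, Ifitm10, passed, against 3.09% of all genes. On the 2 day-40 arrays of cluster 1 the gamma-type mean lay at -0.03 and -0.06, relative to the unirradiated mean. A change here is an adjusted p under 0.05, over all probe sets tested, for the difference in log2(signal + 16), given ± SE. At day 5 none of the 27 tested members passed, where 0.78% of all 6409 tested genes did, and 4 members had an unadjusted p under 0.05. At day 40 none passed against 1.61% of all genes, with 9 at an unadjusted p under 0.05. At day 115, 13 members passed, 6 higher (Ifi27, Ifitm10, Irf7, Mx1, Tap1 and Usp18) and 7 lower (Gbp3, Ifi204, Ifi47, Irf9, Irgm1, Isg15 and Tapbp), where 28.6% of all genes passed, 15.9% higher and 12.7% lower. These are bulk samples, so fewer cells of a type and less RNA per cell cannot be told apart. The count of 13 became 6 without day-115 array 2 and 8 without unirradiated array 4. The day-40 count became 1 without day-40 array 3 or 4. With the cluster term, 2 of the 27 passed at day 115, Ifitm10 higher and Isg15 lower, against 4.42% of all genes, 3.26% higher and 1.15% lower. With the same term Ifitm10 passed at day 40 (2.4% of all genes) and none at day 5 (1.61%).

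**Figure D2:**
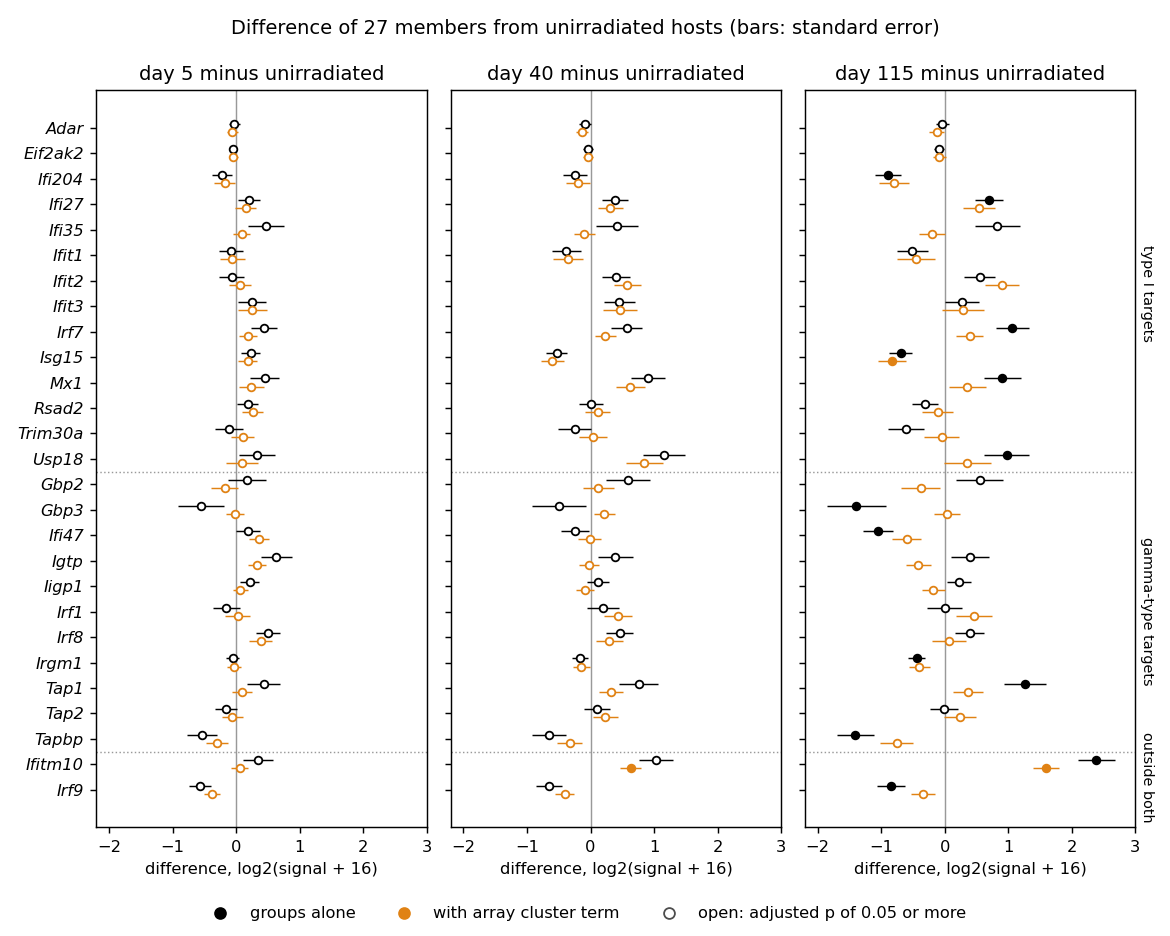
Difference of each of the 27 tested members from unirradiated hosts at day 5, day 40 and day 115, in log2(signal + 16) with standard errors as bars, on the groups alone (black) and with the array cluster as a term (orange), where filled points passed the threshold. At day 115, 13 black points are filled and 2 orange ones, those of Isg15 and Ifitm10.

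Isg15, the ubiquitin-like modifier that gives the conjugation pathway its name, was lower in the late groups than at day 5 in most fits. Its signals were 133, 142, 165 and 144 on the 4 unirradiated arrays, 119.7, 85.6, 102 and 79.7 at day 40 and 94.3, 66.0 and 94.1 at day 115. The lowest, median and highest of the 8 day-5 arrays were 134, 162 and 234. Every day-40 and day-115 array lay below every unirradiated and day-5 array, whichever cluster it belonged to. From day 5 to day 40 Isg15 fell by 0.76 ± 0.15 (adjusted p = 0.0132) and was the 1 member called there, where 1.4% of all genes were. That count became 3 without day-5 array 3 and 0 without day-40 array 4. With the term 2 members were called, Isg15 and Ifitm10, against 8.04% of all genes. The difference was -0.78 ± 0.14 with the cluster term (adjusted p = 0.00286), -0.76 ± 0.22 within cluster 1 (adjusted p = 0.419, where 0.0156% of all genes passed) and -0.79 ± 0.18 within cluster 2 (adjusted p = 0.0276). It missed the threshold on the groups alone without day-40 array 4 (adjusted p = 0.0862) and held under the term whichever array was left out. At day 115 it stood -0.92 ± 0.16 from day 5 (adjusted p = 0.00194), -1.005 ± 0.18 under the cluster term (adjusted p = 0.00192) and -0.999 ± 0.20 within cluster 1 (adjusted p = 0.043), and no left-out array ended the first 2 of these calls.

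Against unirradiated hosts the Isg15 difference was smaller and less firm. It was -0.53 ± 0.17 at day 40 (adjusted p = 0.134), which did not pass although the arrays did not overlap. At day 115 it was -0.70 ± 0.19 (adjusted p = 0.012) and -0.82 ± 0.22 under the cluster term (adjusted p = 0.0411). Without day-115 array 2 the adjusted p was 0.0631 on the groups alone. With the term the call was lost in 12 of 19 leave-outs, with differences from -0.90 to -0.68 and an adjusted p up to 0.102. The arrays whose omission ended it were day-115 array 2, day-40 arrays 1 and 4, day-5 arrays 2 to 6 and the 4 unirradiated ones.

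Usp18, the protease that removes ISG15 from proteins and restrains type I receptor signalling, ran the other way from Isg15 in the late groups. Its signals were 116, 208, 179 and 164 in unirradiated hosts, 645, 339.9, 341 and 290.1 at day 40 and 447, 270.5 and 317 at day 115, with 119.9, 203 and 512 as lowest, median and highest at day 5. All day-40 and day-115 arrays lay above the unirradiated ones, and the day-5 range overlapped both. Usp18 rose by 0.98 ± 0.35 at day 115 (adjusted p = 0.0468), close to the threshold, and the value was 0.36 ± 0.37 under the cluster term (adjusted p = 0.591). Leaving out any of 6 of the 7 arrays, all but unirradiated array 2, ended the call, with differences from 0.78 to 1.13 and an adjusted p up to 0.165. At day 40 the difference was 1.16 ± 0.33 (adjusted p = 0.0855), and within cluster 2 it was 0.88 ± 0.25 (adjusted p = 0.0829). The day-40 value passed when only these 2 groups were fitted (adjusted p = 0.0473).

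Ifitm10, a sequence relative of the membrane proteins that block virus entry, and one with no settled place among the targets of either interferon, showed the largest day-115 difference of the 27. Its signals were 229.6, 226, 224 and 237 in unirradiated hosts, 787, 623, 335 and 330.4 at day 40 and 986, 1675 and 1228 at day 115. The day-5 arrays ran from 218 over a median of 259.9 to 444. Each day-115 array exceeded every other array, and each day-40 array exceeded every unirradiated one, while the cluster 1 arrays of day 5 and day 40 lay above those of cluster 2. Against unirradiated hosts the day-115 difference was 2.39 ± 0.29 (adjusted p = 6.36e-05), 1.60 ± 0.20 under the cluster term (adjusted p = 0.000133), and it passed in both fits whichever array was left out. The day-40 difference was 1.03 ± 0.27 (adjusted p = 0.0675), 0.63 ± 0.16 under the cluster term (adjusted p = 0.0435) and 0.51 ± 0.11 within cluster 2 (adjusted p = 0.0259), against 3.09% of all genes within cluster 2. With the term the day-40 call was lost in 15 of 19 leave-outs, all but those of day-5 array 4 and the 3 day-115 arrays, with an adjusted p up to 0.112.

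Between irradiated groups Ifitm10 was higher at each later time in the cluster-adjusted fit. From day 5 to day 115 the difference was 2.04 ± 0.26 (adjusted p = 0.000122), 1.55 ± 0.16 under the cluster term (adjusted p = 1.49e-05) and 1.63 ± 0.23 within cluster 1 (adjusted p = 0.019). From day 5 to day 40 it was 0.68 ± 0.24 on the groups alone (adjusted p = 0.177), 0.58 ± 0.13 under the cluster term (adjusted p = 0.0108) and 0.41 ± 0.11 within cluster 2 (adjusted p = 0.0434). From day 40 to day 115 it was 1.36 ± 0.29 (adjusted p = 0.0867), where none of the 27 members (4 at an unadjusted p under 0.05) and 0.078% of all genes passed, and 0.96 ± 0.17 under the cluster term (adjusted p = 0.0272; 0.14% of all genes). The last call was lost in 7 of 19 leave-outs (unirradiated arrays 1 and 4, day-5 array 5, day-40 arrays 2 to 4 and day-115 array 2), with an adjusted p up to 0.103.

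**Figure D3:**
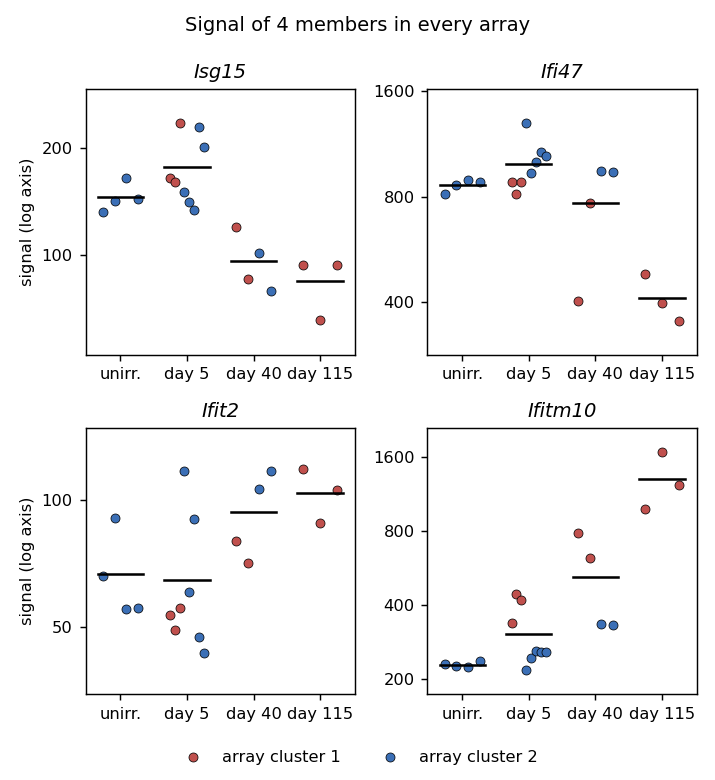
Signal of Isg15, Ifi47, Ifit2 and Ifitm10 in each of the 19 arrays by group, on log axes, coloured by array cluster, with the group mean as a bar. Isg15 in day 40 and day 115 (66.0 to 119.7) lies below all other arrays in both clusters, Ifi47 is lowest at day 115 apart from 1 day-40 array, and Ifitm10 is highest at day 115.

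The interferon-inducible GTPases, which attack the vacuoles of intracellular microbes and are mostly gamma-type targets, included 3 of the 7 members that fell at day 115, Ifi47, Irgm1 and Gbp3. Of the 6 tested, 3 fell and none rose, where 12.7% of all genes fell and 15.9% rose. With the term none of the 6 passed, against 4.42% of all genes. The GTPase genes Mx1 and Mx2 were counted with the antiviral effectors and not here, and Mx1 rose at day 115 on the groups alone. Within cluster 2, which holds 2 of the day-40 arrays, all 6 were higher at day 40 than in unirradiated hosts. Their median difference was 0.13, beside -0.002 over all tested genes, and none passed, against 3.09% of all genes. At day 115 on the groups alone their median difference was -0.11, where the median of all tested genes was 0.02. Ifi47 gave 814, 864, 894 and 883 in unirradiated hosts, 404, 768, 947 and 943 at day 40 and 482, 396 and 353 at day 115, and 813, 969 and 1301 as lowest, median and highest at day 5. The day-115 arrays lay below every unirradiated and day-5 array, and day-40 array 1 lay among them. Ifi47 fell by 1.24 ± 0.21 from day 5 to day 115 (adjusted p = 0.00154), where 6 of the 27 members (Ifitm10 higher, and Ifi204, Ifi47, Irgm1, Isg15 and Tapbp lower) and 13.9% of all genes (8.69% higher, 5.24% lower) were called. That count became 10 without day-5 array 3 and 3 without day-115 array 3. With the term 6 were called too, Ifit2 and Ifitm10 higher and Ifi204, Ifi47, Igtp and Isg15 lower, against 14.1% of all genes (7.8% higher, 6.32% lower). The value was -0.95 ± 0.18 under the cluster term (adjusted p = 0.00328) and -1.05 ± 0.24 within cluster 1 (adjusted p = 0.0637), and no left-out array ended the call with or without the term. Against unirradiated hosts it was -1.05 ± 0.24 (adjusted p = 0.00559) whichever array was left out, but -0.60 ± 0.23 under the cluster term (adjusted p = 0.136). The day-5 difference from unirradiated hosts, 0.18 ± 0.19, did not pass.

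Irgm1, a GTPase that regulates the others and autophagy, had signals of 62.7, 57.1, 66.1 and 82.6 in unirradiated hosts, 48.6, 48.0, 67.1 and 69.4 at day 40, 45.7, 41.8 and 46.9 at day 115, and 46.9, 65.1 and 74.8 as lowest, median and highest at day 5. The day-115 arrays lay at or below the lowest of the other groups, where day-5 array 5 and day-40 arrays 1 and 2 came next. The difference at day 115 was -0.44 ± 0.13 from unirradiated hosts (adjusted p = 0.0209) and -0.39 ± 0.12 from day 5 (adjusted p = 0.0377). The first was lost without unirradiated array 4 or day-115 array 2 (adjusted p up to 0.0698), the second without day-5 array 4 or 7 or any day-115 array (up to 0.135). With the term they were -0.40 (adjusted p = 0.167) and -0.36 (adjusted p = 0.0742).

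Gbp3, a guanylate-binding protein gene, separated by array cluster in the groups that held both clusters. Its signals were 194, 204, 162 and 209 in unirradiated hosts, 73.3, 78.0, 200.4 and 244 at day 40 and 90.2, 56.4 and 48.2 at day 115, and the day-5 arrays gave 49.1 to 73.4 in cluster 1 and 166.5 to 247 in cluster 2. No array of cluster 1, from any group, reached the lowest array of cluster 2. The day-115 difference of -1.39 ± 0.46 (adjusted p = 0.0317) became 0.03 ± 0.21 under the cluster term (adjusted p = 0.937). It was also lost without any of 5 arrays (unirradiated arrays 1, 2 and 4 and day-115 arrays 2 and 3), with an adjusted p up to 0.106. Within cluster 1 the day-115 arrays differed from the day-5 arrays by 0.07 ± 0.19 (adjusted p = 0.852).

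Igtp, a GTPase of the same family as Irgm1, differed from day 5 to day 115 only once the clusters were in the model. Its signals were 254, 251, 205 and 201 in unirradiated hosts, 409, 325, 264 and 234 at day 40 and 306, 311 and 298 at day 115. The 3 day-5 arrays of cluster 1 gave 436 to 634 and the 5 of cluster 2 gave 236 to 317. All day-115 arrays, which belong to cluster 1, lay below the day-5 arrays of that cluster. The difference was -0.23 ± 0.26 on the groups alone (adjusted p = 0.583), -0.74 ± 0.16 under the cluster term (adjusted p = 0.0064), a call that held in all 19 leave-outs, and -0.84 ± 0.20 within cluster 1 (adjusted p = 0.0689). Gbp2 and Iigp1 passed in no comparison on the groups alone, with the term or within a cluster, with day-115 values of 0.55 ± 0.37 and 0.23 ± 0.19 against unirradiated hosts and of -0.38 and -0.18 with the term.

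Among the antiviral effectors, the IFIT genes, whose products bind foreign RNA and hinder its translation, did not move as a family. Ifit2 gave 65.9, 90.6, 54.9 and 55.4 in unirradiated hosts, 79.8, 70.7, 106 and 117 at day 40 and 118, 88.1 and 105 at day 115, with 43.2, 54.2 and 117 as lowest, median and highest at day 5. The day-5 arrays of cluster 1 gave 49.0 to 55.2, all below the day-115 arrays, while those of cluster 2 spread from 43.2 to 117. From day 5 to day 115 the difference was 0.62 ± 0.21 on the groups alone (adjusted p = 0.0565), 0.84 ± 0.21 under the cluster term (adjusted p = 0.0144) and 0.80 ± 0.13 within cluster 1 (adjusted p = 0.0215). Within cluster 1 it was 1 of 3 members called, with Ifitm10 and Isg15, against 1.34% of all genes. Under the term the call was lost without day-115 array 1, at an adjusted p of 0.05003. Ifit1 had 43.7, 77.0, 42.2 and 35.6 in unirradiated hosts and 24.9, 27.8 and 34.4 at day 115, a difference of -0.51 ± 0.24 that did not pass (adjusted p = 0.117). With only those 2 groups fitted Ifit1 passed (adjusted p = 0.0447), and so did Ifit2 at 0.55 from unirradiated hosts (adjusted p = 0.0213). Ifit3 differed by 0.27 ± 0.27 (adjusted p = 0.469).

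Mx1, a GTPase gene counted as a type I target, gave 33.6, 48.8, 41.7 and 38.5 in unirradiated hosts, 104, 115, 73.5 and 72.8 at day 40, 85.3, 80.9 and 105 at day 115 and 36.2, 53.7 and 163 as lowest, median and highest at day 5. The day-40 and day-115 arrays all lay above the unirradiated ones. The rise at day 115 was 0.91 ± 0.29 (adjusted p = 0.0266) and 0.35 ± 0.29 under the cluster term (adjusted p = 0.494), and it was lost without unirradiated array 1 or 4 or any day-115 array, with an adjusted p up to 0.0922. At day 40 Mx1 differed by 0.91 ± 0.27 (adjusted p = 0.0981), which passed when only these 2 groups were fitted (adjusted p = 0.0171), and within cluster 2 by 0.66 ± 0.18 (adjusted p = 0.0772).

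Ifi27, a mitochondrial protein gene of the type I response, gave 686, 649, 512 and 493 in unirradiated hosts, 941, 747, 726 and 666 at day 40, 789, 1295 and 836 at day 115 and 541, 686 and 894 as lowest, median and highest at day 5. The day-115 arrays lay above the unirradiated ones and overlapped those of day 5 and day 40. The rise of 0.70 ± 0.22 (adjusted p = 0.0247) was 0.54 ± 0.25 under the cluster term (adjusted p = 0.209). It was lost without unirradiated array 3 or 4 or day-115 array 2, with differences from 0.48 to 0.83 and an adjusted p up to 0.129.

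The probe sets of the Ifi200 genes, DNA sensors and regulators encoded side by side, had negative differences at day 115 in 3 of the 4 that were bright enough to be tested. The brightest Ifi204 probe set, of a design that can match related genes, gave 259, 446, 400.4 and 342 in unirradiated hosts, 259.9, 366, 284 and 284 at day 40, 215, 217 and 131 at day 115 and 254, 304 and 370.4 as lowest, median and highest at day 5. Day-115 arrays lay below all others. The difference was -0.90 ± 0.20 from unirradiated hosts (adjusted p = 0.0053) whichever array was left out, and -0.79 ± 0.24 under the cluster term (adjusted p = 0.062). From day 5 it was -0.67 ± 0.18 (adjusted p = 0.0184), lost without day-115 array 3 at an adjusted p of 0.131, and -0.61 ± 0.19 under the cluster term (adjusted p = 0.0398), lost in 7 of 19 leave-outs (day-115 array 3, day-40 arrays 2 to 4 and day-5 arrays 1 to 3). A dimmer Ifi204 probe set disagreed, at 0.17 ± 0.11 (adjusted p = 0.267). Of the probe sets with several symbols, that of Ifi203 and its copies differed by -1.77 ± 0.42 (adjusted p = 0.00719), and by -0.49 under the cluster term. That of Mndal, Ifi211, Ifi205 and Ifi204 differed by -1.33 ± 0.36 (adjusted p = 0.013), and by -0.97 under the cluster term, and no single gene is named from either.

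Rsad2, Trim30a, Ifi35, Eif2ak2 and Adar, antiviral effectors too, did not pass against unirradiated hosts by their brightest probe set, either on the groups alone or with the term. At day 115 the differences were -0.32 ± 0.20 for Rsad2, the viperin gene, -0.61 ± 0.28 for Trim30a, an E3 ligase family gene, and 0.83 ± 0.36 for Ifi35. They were -0.09 ± 0.08 for Eif2ak2, which encodes the RNA-activated kinase PKR, and -0.04 ± 0.10 for the RNA editing enzyme Adar. When only the day-115 and unirradiated arrays were fitted, Ifi35 (adjusted p = 0.00675), Trim30a (adjusted p = 0.014) and Rsad2 (adjusted p = 0.0373) passed. The signals of Eif2ak2 lay near the filter level of 26.4 in every group (28.3 ± 2.78 in unirradiated hosts). A dimmer Adar probe set rose by 1.09 ± 0.33 at day 115 (adjusted p = 0.0218), and by 0.11 ± 0.19 under the cluster term (adjusted p = 0.758).

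The transcription factors of the response went different ways. Irf9, a DNA-binding subunit of the complex that type I interferon activates, gave 687, 705, 639 and 673 in unirradiated hosts, 321, 352, 548 and 516 at day 40, 276, 473 and 384 at day 115 and 339, 464 and 556 as lowest, median and highest at day 5. Every irradiated array, in both clusters, lay below the 4 unirradiated ones. The difference was -0.57 ± 0.18 at day 5 (adjusted p = 0.172), -0.65 ± 0.20 at day 40 (adjusted p = 0.124) and -0.84 ± 0.22 at day 115 (adjusted p = 0.0112), and the last missed the threshold without day-115 array 1 (adjusted p = 0.0618). With the term it was -0.38, -0.40 and -0.34, with adjusted p of 0.169, 0.212 and 0.288. Within cluster 2 alone, Irf9 was the 1 member called at day 5, with -0.41 ± 0.10 (adjusted p = 0.0472), against 2.37% of all genes.

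Irf7, the factor that amplifies type I interferon production, gave 62.4, 71.8, 65.9 and 63.5 in unirradiated hosts, 186, 88.1, 87.3 and 84.0 at day 40, 140.1, 182 and 145 at day 115 and 69.1, 82.2 and 171 as lowest, median and highest at day 5. All day-40 and day-115 arrays lay above the unirradiated ones, and among day-5 arrays those of cluster 1 were the higher. Irf7 rose by 1.06 ± 0.26 at day 115 (adjusted p = 0.00885) whichever array was left out, and the value with the term was 0.39 ± 0.21 (adjusted p = 0.282). A second probe set of Irf7 differed by 0.25 ± 0.16 (adjusted p = 0.265).

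Irf1, a rapid target of interferon gamma, gave 554, 562, 545 and 600.3 in unirradiated hosts, 548, 399, 843 and 975 at day 40 and 499, 792 and 454 at day 115. The 2 day-40 arrays of cluster 2 lay above the other 2 and above all day-5 arrays. Within cluster 2 the day-40 arrays were 0.74 ± 0.19 above those of day 5 (adjusted p = 0.0468), where 3 of 27 members, with Ifitm10 and Isg15, and 5.99% of all genes were called, and the same difference was 0.02 ± 0.27 within cluster 1 (adjusted p = 0.99). The difference between the clusters in this respect was not tested. Irf8, a factor of myeloid and effector lymphocyte programmes, differed from unirradiated hosts by 0.50 ± 0.19, 0.46 ± 0.22 and 0.39 ± 0.24 at day 5, 40 and 115 and did not pass, nor with the term.

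Genes of peptide loading onto MHC class I moved in opposite directions at day 115. Tap1, a chain of the peptide transporter, gave 249.9, 325, 253 and 258 in unirradiated hosts, 611, 507, 385 and 405 at day 40, 583, 942 and 539 at day 115, and day-5 signals of 589 to 639.9 in cluster 1 and 235 to 299 in cluster 2. All day-40 and day-115 arrays lay above the unirradiated ones, and the day-5 arrays of cluster 1 reached the day-115 range. Tap1 rose by 1.26 ± 0.33 (adjusted p = 0.0115), by 0.37 ± 0.23 under the cluster term (adjusted p = 0.362), and missed the threshold without day-115 array 2 (adjusted p = 0.0601). Its dimmer probe set differed by 0.10 ± 0.10 (adjusted p = 0.462). Tap2, the other chain, differed by -0.02 ± 0.22 (adjusted p = 0.966).

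Tapbp, which encodes tapasin, the bridge between transporter and MHC class I, gave 903, 1165, 991 and 1145 in unirradiated hosts, 444, 556, 871 and 875 at day 40, 439, 308 and 419.8 at day 115 and 445, 705 and 1104 as lowest, median and highest at day 5. No day-40 or day-115 array reached the unirradiated range. The brightest probe set fell by 1.41 ± 0.29 at day 115 (adjusted p = 0.00322) whichever array was left out, and the difference was -0.76 ± 0.25 under the cluster term (adjusted p = 0.0905). From day 5 the difference was -0.86 ± 0.26 (adjusted p = 0.0322) and -0.46 under the cluster term (adjusted p = 0.131), and on the groups alone it was lost without day-5 array 7 or 8 or any day-115 array (adjusted p up to 0.152). The other probe sets of Tapbp disagreed with each other, at -0.62 ± 0.16 (adjusted p = 0.0117) and 0.62 ± 0.33 (adjusted p = 0.162) against unirradiated hosts.

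Like many genes of the whole array, some members differed between the array clusters inside a single group. The clusters were drawn from these same signals, so differences between them are built in. Among the 8 day-5 arrays, 10 of the 27 members did not overlap between the clusters, where 48.7% of all tested genes did not. Gbp2, Ifi35, Ifitm10, Igtp, Iigp1, Irf7 and Tap1 were higher in cluster 1 and Gbp3, Ifi47 and Irf9 lower. The median size of the difference was 0.37 over the members and 0.29 over all tested genes. Tap1 was higher in cluster 1 by 1.11 and Gbp3 lower, at -1.45, in log2(signal + 16), while Isg15, at 0.12, overlapped. At day 40, with 2 arrays in each cluster, Tap1 differed by 0.48, Gbp3 by -1.37 and Isg15 by 0.15 in the same direction. The cluster term takes such a difference as equal in every group, which was not tested.

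**Figure D4:**
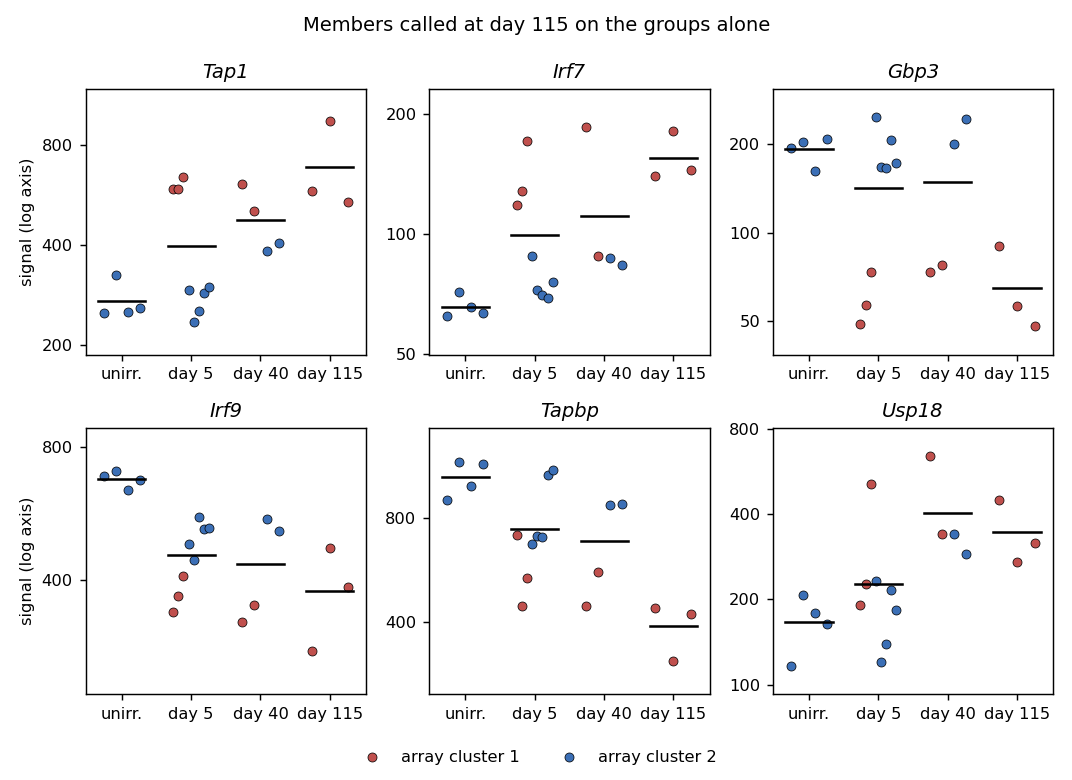
Signal of Tap1, Irf7, Gbp3, Irf9, Tapbp and Usp18, members called at day 115 on the groups alone, in each array by group on log axes, coloured by array cluster with the group mean as a bar. For Tap1, Irf7 and Gbp3 the red cluster 1 arrays of day 5 (for Gbp3, 49.1 to 73.4) stand apart from the blue cluster 2 arrays (166.5 to 247), and every irradiated Irf9 array lies below the unirradiated ones.

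Set side by side, type I and gamma-type targets had median differences at day 5 of 0.19 over 14 genes and 0.16 over 11, beside 0.03 over all tested genes. At day 40 they were 0.20 and 0.11 beside 0.03, and at day 115 0.11 and -0.00284 beside 0.02. With the cluster term the medians were 0.09 and 0.02 at day 5, 0.08 and 0.12 at day 40, and -0.07 and -0.18 at day 115. Over all tested genes the medians with the term were -0.002, -0.01 and -0.04 at these times. Of the 14 type I targets 4 rose and 2 fell at day 115 on the groups alone, and of the 11 gamma-type targets 1 rose and 4 fell, where 15.9% of all genes rose and 12.7% fell. With the term 1 type I target, Isg15, fell and no gamma-type target passed, where 3.26% of all genes rose and 1.15% fell. The difference between the classes was not tested. Within cluster 1 the median from day 5 to day 115 was -0.07 for type I and -0.37 for gamma-type targets, beside -0.03 for all tested genes. The mean level per array, relative to the unirradiated mean, ran from -0.12 to 0.16 in unirradiated hosts for type I targets, -0.15 to 0.49 at day 5, 0.11 to 0.34 at day 40 and 0.14 to 0.16 at day 115. The gamma-type mean ran from -0.13 to 0.10, from -0.15 to 0.25, from -0.06 to 0.26 and from -0.31 to 0.00439 in the same groups. The groups overlapped in both classes, and the 3 day-115 type I values lay inside the ranges of day 5 and day 40.

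**Figure D5:**
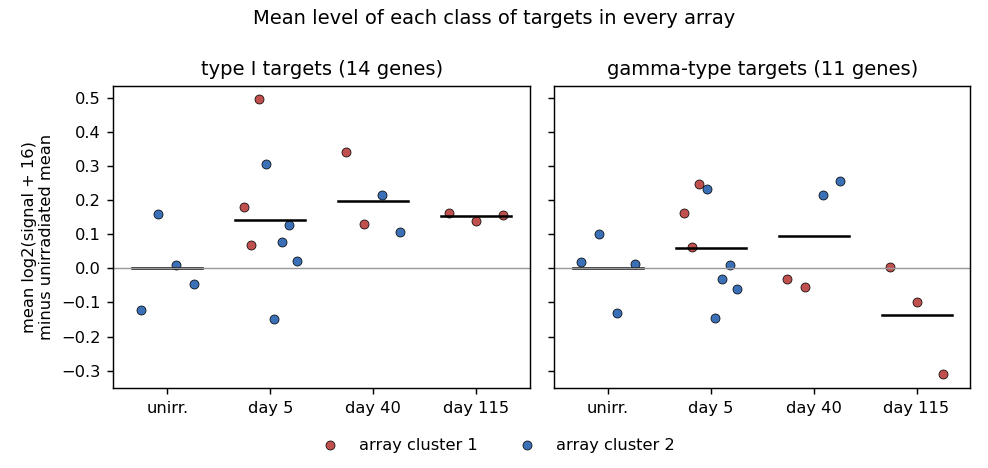
Mean log2(signal + 16) over the 14 type I targets and the 11 gamma-type targets in each array, minus the mean of the unirradiated arrays, by group and coloured by array cluster with the group mean as a bar. Type I values at day 115 lie between 0.14 and 0.16, and gamma-type values at day 115 run from -0.31 to 0.00439.

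The receptors and regulators of the pathway were read from a separate list of 29 genes, of which 20 were tested. None passed at day 5, 1 rose at day 40 and 6 rose and 1 fell at day 115 on the groups alone, where 0.78%, 1.61% and 28.6% of all genes passed. With the term 1 passed at day 115, Ifna4, against 4.42% of all genes, and none at day 5 (1.61%) or day 40 (2.4%). The type I receptor chain Ifnar2 rose by 0.91 ± 0.22 at day 40 (adjusted p = 0.0386), from 82.7 ± 16.2 (SD, n = 4) to 169.7 ± 33.99 (n = 4), and differed by 0.80 under the cluster term (adjusted p = 0.0649). At day 115 Ifnar1 rose by 1.43 ± 0.42 (adjusted p = 0.0199), Ifnar2 by 0.67 ± 0.23 (adjusted p = 0.0407) and the gamma receptor chain Ifngr1 by 1.26 ± 0.31 (adjusted p = 0.00786). With the term these were 0.21, 0.44 and 0.46, and none passed. The feedback inhibitor Socs1 rose by 0.94 ± 0.28 (adjusted p = 0.0194) and the phosphatase gene Ptpn6 by 1.13 ± 0.34 (adjusted p = 0.0199), with 0.18 and 0.23 under the term. The median difference over the 20 was 0.26 at day 115 and 0.16 with the term. The interferon gene Ifna4, one of many closely related alpha interferon genes that may share its probes, had signals of 44.3 ± 8.39 in unirradiated hosts and 22.3 ± 1.55 at day 115, the latter under the filter level, and it differed by -0.64 ± 0.12 (adjusted p = 0.00154) and -0.46 under the cluster term (adjusted p = 0.0482).

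Of 74 further inducible genes 33 were tested, and 1 rose at day 5, 3 at day 40, and 8 rose and 6 fell at day 115 on the groups alone, where 0.78%, 1.61% and, at day 115, 15.9% higher and 12.7% lower of all genes passed. With the term 1, 3 and 2 rose at the 3 times and none fell. Of all genes 1.61%, 2.4% and, at day 115, 3.26% higher and 1.15% lower passed with the term. Among the largest at day 115 were rises of 1.81 ± 0.36 for the quiescence regulator Slfn2, 1.66 ± 0.28 for the lysosomal thiol reductase Ifi30 and 1.09 ± 0.29 for Slfn1. The falls included -1.66 ± 0.33 for Gbp7, -1.41 ± 0.41 for the antibody receptor Trim21 and -1.29 ± 0.36 for Irgm2, with adjusted p between 0.00117 and 0.0186 for the 6 genes. With the term Ifi30 passed at 0.80 (adjusted p = 0.00397), while Slfn2 stood at 0.90 (adjusted p = 0.0768), Slfn1 at 0.26 (adjusted p = 0.384), Gbp7 at -0.81 (adjusted p = 0.0602), Irgm2 at -0.29 and Trim21 at -0.31. Ly6e, a membrane protein gene of the type I response named here after its values were seen, was the 1 gene of all the interferon lists that passed against unirradiated hosts at every time with and without the term. It went from 2851 ± 339 (SD, n = 4) in unirradiated hosts to 5003 ± 1006 (n = 8), 5047 ± 487 (n = 4) and 6032 ± 618 (n = 3) in the 3 irradiated groups in order of time. The rises were 0.79 ± 0.14, 0.82 ± 0.17 and 1.08 ± 0.18, and 0.69, 0.68 and 0.80 with the term, with adjusted p from 0.000984 to 0.022 over the 6 fits. The MHC class I genes H2-K1 and H2-D1, also named after their values were seen, rose at day 40 by 0.57 ± 0.12 (adjusted p = 0.0197) and 0.72 ± 0.15 (adjusted p = 0.0223), and by 0.50 and 0.54 under the cluster term, where both passed. Probe sets of Ly6e, H2-K1 and H2-D1 are of a design that can match related genes.

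Some markers of other cells and some genes of handling and stress differed in the late groups, while others did not. Of 12 tested B cell markers 6 were higher at day 115 than in unirradiated hosts (Ighm, H2-Eb1, H2-Aa, Cd74, H2-Ab1 and Blk) and none lower, where 15.9% of all genes were higher. With the term 1 was, Ighm, against 3.26% of all genes. The summed signal of the 14 with a probe set ran from 1326 to 1619 in unirradiated hosts, 1567 to 3339 at day 5, 1942 to 3793 at day 40 and 3138 to 5042 at day 115. At day 5 it was 2563 to 3339 in cluster 1 and 1567 to 1722 in cluster 2. Ighm went from 499.6 ± 41.6 to 1944 ± 319, while Cd79a stood at 136 ± 11.3 and 156 ± 10.7 and no marker was at 0. The summed signal of 5 plasma cell markers ran from 217 to 294 in unirradiated hosts and from 907 to 1216 at day 115. Most of the day-115 sum was Txndc5, which went from 112 ± 24.0 to 860 ± 166, and Jchain went from 33.6 ± 4.91 to 87.3 ± 48.2. Both rose with and without the term. Sdc1, at 36.5 and 39.6, and Xbp1, at 47.0 and 34.8, were called in neither fit, and Prdm1 was not tested. The 4 erythroid markers with a probe set summed to 219 to 300.2 in unirradiated hosts, 249 to 2515 at day 5, 371 to 1016 at day 40 and 471 to 1275 at day 115, and the globin gene Hba-a1 rose at day 115 by 2.19 ± 0.73 (adjusted p = 0.0327) but not with the term (adjusted p = 0.482). The summed signal of 15 handling and stress genes ran from 3447 to 3861 in unirradiated hosts, 2335 to 4912 at day 5, 1837 to 3190.2 at day 40 and 1812 to 2051 at day 115. Among them the immediate early gene Egr1 fell at each time with and without the term, at day 115 from 713 ± 84.2 to 97.4 ± 4.27. At day 115 Jund and Egr2 fell too and Ier3 rose on the groups alone, and with the term Fos, Dusp1 and Hspa1b fell beside Egr1. Of the 15 tested, 1 rose and 3 fell on the groups alone, where 15.9% of all genes rose and 12.7% fell. With the term none rose and 4 fell, against 3.26% and 1.15% of all genes. The 12 monocyte and macrophage markers, none called among 9 tested, summed to 650 to 768 and 652 to 737, and the 6 dendritic cell markers, of which Itgax rose on the groups alone, to 536 to 656 and 585 to 659.6. None of 7 tested neutrophil markers, 1 NK cell marker and 1 CD4 T cell marker was called at day 115 against unirradiated hosts in either fit. The part of these cells and of handling in the differences of Tap1, Irf7 and the other genes named was not tested.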

How the data were processed

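The deposited table holds 1 signal intensity per probe set and array, on a linear scale, for 12488 probe sets on 19 arrays. How the authors processed and scaled these signals was not given in the sources used here. Leaving out 66 control probe sets, 12422 remained, of which 10833 had 1 symbol in the probe table, 396 several and 1193 none there. Here limma 3.58.1 (R 4.3.3) was used to fit log2(signal + 16) for the 8695 probe sets whose mean signal exceeded the 30th percentile (26.4), with all 19 arrays in 1 model, group as the factor, a trended prior variance and Benjamini-Hochberg adjustment over all tested probe sets. A gene counted by its brightest single-symbol probe set, which gave 6409 tested genes. The array clusters came from average linkage on correlations between arrays, which ran from 0.888 to 0.996, and no arrays were identical. The number of arrays limits the precision. Members called against unirradiated hosts, with or without the cluster term, and the 3 brightest were given in full. Up to 6 called genes of each further list were named by size of difference, and the receptor chains. Promoter sequences came from RefSeq (GRCm38.p6). The fit was tested on data simulated with independent noise and no array clusters, so that test does not cover differences between the clusters. The members, classes and further lists were chosen with earlier results of these data known. Other settings and left-out arrays were tried for the members and not for the further lists.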

Additional observations from a re-analysis of the deposited data

Results flagged for a closer look

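In groups of 4 or 8 arrays, 7 of 81 member and group pairs (8.64%) had a highest or lowest array far from the rest by Dixon's test, where chance gives about 1 in 20. Usp18 stood out on the high side, at 644.7 in day-40 array 1 (nearest array 341) and 512.38 in day-5 array 3 (nearest 232). Mx1 was high in the same day-5 array, at 163.31 (nearest 78.5), and Irf7 in the same day-40 array, at 185.55 (nearest 88.1). Tap2 was low in day-40 array 2, at 151.73 (nearest 290.0). These 5 values lie in arrays of cluster 1. In unirradiated hosts Tap1 was high in array 2, at 324.68 (nearest 258), and Trim30a in array 4, at 276.88 (nearest 195).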

How the results depend on the processing

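The settings tried were pseudocounts of 1 and 64, no filter or the 50th percentile, quantile and median scaling, no variance trend, the cluster term, fits within a cluster, the replicate number as a block, and only the groups compared. Over 162 gene and comparison pairs, 3190 of 3303 alternative values kept their side of the threshold, among them 153 that passed in neither setting and had another sign. Of the rest 61 lost the call, 51 gained one and 1 called value changed sign, Gbp3 at day 115, which was 0.033 with the cluster term. Counts of called members are given as genes, then as member probe sets. Outside the main setting, the term and the fits within a cluster, the share of all genes called is not given here. No count from those other settings is a result about the members. Against unirradiated hosts at day 5 (0 and 0) they were 1 and 1 within cluster 2. At day 40 (0 and 0) they were 1 and 1 with the term and within cluster 2, and 2 and 2 with only the groups compared. At day 115 (13 and 17) they were 2 and 2 with the term, and 19 genes passed with only the groups compared. From day 5 to day 40 (1 and 1) they were 2 and 2 with the term, 0 and 0 within cluster 1, 3 and 3 within cluster 2, and 0 and 0 with only the groups compared. From day 5 to day 115 (6 and 8) they were 3 and 3 within cluster 1, and with only the groups compared 5 probe sets. From day 40 to day 115 (0 and 0) they were 1 and 1 with no filter, median scaling or the term. Leaving out single arrays gave genes from 0 to 0 and probe sets from 0 to 0 at day 5, 0 to 1 and 0 to 1 at day 40, and 6 to 12 and 8 to 16 at day 115. It gave 0 to 3 and 0 to 3 from day 5 to day 40, 3 to 10 and 3 to 13 from day 5 to day 115, and 0 to 2 and 0 to 3 from day 40 to day 115. Usp18 at day 115 also missed the threshold with a pseudocount of 64 (adjusted p = 0.051), no filter (0.0506) and quantile scaling (0.0606). The cause of these moves was not tested.

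With the replicate number as a block, 11 genes and 13 probe sets were called at day 5 against unirradiated hosts, 3 and 3 at day 40, and 4 and 4 from day 5 to day 115. The share of all genes called with this block is not given here, so these counts are no result about the members. Correlations of same-numbered arrays ran from -0.67 to 0.76 and cannot show whether the numbers pair the samples. Between day 5 and day 40 they were 0.64, 0.62 and 0.76 for arrays 1, 2 and 4, whose pairs share an array cluster. The value was -0.67 for array 3, whose pair does not. Numbers 5 to 8 occur only at day 5, so the block fit rests its day-5 differences on day-5 arrays 1 to 4. Of these, arrays 1 to 3 lie in cluster 1. Fits within cluster 1 gave no comparison with unirradiated hosts, and fits within cluster 2 none with day 115, because those arrays lie in the other cluster. Only 3 arrays at day 115, the lack here of unirradiated hosts of the late times, unstated scaling by the authors and signals near the filter for Eif2ak2 and Mx2 limit these results.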
